A study of Mus musculus with 6 samples.

Results

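The genes described here build cholesterol and fatty acids or control that synthesis. They comprise 30 mouse genes listed by name for their place in these pathways, and all 30 names occurred among the 23284 gene names of the count files. Their RNA was compared between 3 shCrebbp libraries and 3 control libraries of preSC cells, a mouse line labelled as a precursor of small cell lung cancer. The shCrebbp libraries (replicates 1, 2 and 5) each carried a different pLKO.1-TRC hairpin against Crebbp, the gene of the histone acetyltransferase CREB-binding protein, so each hairpin stands for 1 library. The controls comprised 2 empty-vector libraries (pLKO.1-TRC, labelled shEmpty and numbered 1 and 2 here) and, as number 3, a single library of cells that received a non-silencing hairpin (shNS). All 6 libraries thus came from cells of 1 line carrying a lentiviral pLKO.1 vector, and the design text gives the purpose as finding genes regulated by Crebbp. Nothing in the labels says that the libraries came from separate cultures, so a p-value here reflects only how these libraries vary, which within the shCrebbp group includes differences between hairpins.

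Cholesterol is made from acetyl-CoA through mevalonate, isoprenoid pyrophosphates, squalene and lanosterol, and fatty acids are made from the same precursor through malonyl-CoA. Both routes are driven by SREBP transcription factors, membrane proteins that SCAP escorts from the endoplasmic reticulum to the Golgi for cleavage when sterols are scarce, while INSIG proteins hold SCAP back when sterols are plentiful. SREBP2 acts mainly on sterol genes and SREBP1 mainly on fatty acid genes, and both use the coactivators CREB-binding protein and p300. The members were grouped by role into 7 mevalonate steps, 10 squalene and sterol steps, 6 regulators and carriers, and 7 genes of fatty acid and glycerolipid synthesis.

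Each library had between 13622020 and 19804949 reads assigned to genes, so that 1 CPM (a count scaled to the library's gene reads, after TMM normalization) stood for 13.6 to 19.6 reads. Crebbp itself stood at 46.2, 58.3 and 48.9 CPM in shCrebbp replicates 1, 2 and 5, against 66.2, 69.6 and 69.4 CPM in control replicates 1, 2 and 3, a log2 fold change of -0.42 ± 0.10 (SE; edgeR adjusted p = 0.0999; DESeq2 adjusted p = 0.0159). Without hairpin 2 it passed in edgeR, at -0.53 (adjusted p = 0.0478). The knockdown was thus seen in each hairpin library but was partial at the RNA level, and with all 6 libraries it did not pass the edgeR threshold over all genes. Of the 9 neuroendocrine marker genes listed for the labelled cell type, all had reads, with a summed level of 5925 to 8111 CPM in shCrebbp libraries and 7616 to 8938 CPM in controls. Of those 9, Calca, Epcam and Chga lay below all controls in each hairpin library (log2 fold changes of -1.04, -0.87 and -0.29, edgeR adjusted p = 0.0558, 0.0971 and 0.244), Chgb lay above them (0.27, adjusted p = 0.341) and the other 5 overlapped. The part of such differences between libraries in the results below was not tested. Adipocyte and club cell markers summed to at most 0.136 and 0.285 CPM in any library, and Plin1, Fabp4, Lep, Scgb3a2 and the hepatocyte gene Alb had 0 reads throughout. Hepatocyte markers, nearly all Ttr, summed to 9.41 to 34.6 CPM in shCrebbp libraries and 19.9 to 21.2 CPM in controls. Alveolar type 2 markers, nearly all Abca3, summed to 70.1 to 71.6 CPM in shCrebbp libraries and 75.4 to 79.1 CPM in controls. Fibroblast markers, mostly Dcn, summed to 12.9 to 63.2 CPM in shCrebbp libraries and 37.2 to 45.2 CPM in controls. Leukocyte markers stood at 3.68 to 5.44 CPM in shCrebbp libraries and 3.01 to 5.40 CPM in controls, and endothelial markers at 0.749 to 1.32 CPM in shCrebbp libraries and 0.971 to 1.04 CPM in controls.

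Of the 30 members, 29 passed the filter on low counts and were tested. Hmgcs1, which encodes the cytosolic HMG-CoA synthase that feeds the mevalonate pathway, is listed at 0 reads in all 6 libraries. It is 1 of 5187 of the 23284 gene names at 0 throughout, and since its neighbours in the pathway were well covered, the 0 is given only as what the files list. In bulk RNA, fewer cells with a transcript and less transcript per cell cannot be told apart.

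In the pooled comparison a single member passed the threshold. Cyp51, the lanosterol demethylase gene, was higher with the Crebbp hairpins by a log2 fold change of 0.58, and edgeR called no member lower. That is 1 of 29 members called at an adjusted p under 0.05, beside 168 of 13390 tested genes (1.25%). By direction the background was 0.276% higher and 0.978% lower. The members with an unadjusted p under 0.05 numbered 5 (17.2%), 4 higher and 1 lower, beside 16.5% of all tested genes (7.99% higher and 8.46% lower). Of the 29 log2 fold changes 17 were positive and 12 negative (58.6% and 41.4%), beside 53.2% and 46.8% of all tested genes. In 7 members (24.1%) the shCrebbp and control libraries did not overlap, 5 above and 2 below, beside 22.4% of all tested genes (11.4% above and 11% below). With both directions pooled, the shares at an unadjusted p and without overlap therefore lay near the background. By direction the member shares were 13.8% higher and 3.45% lower at an unadjusted p. Without overlap they were 17.2% above and 6.9% below. These rest on 5 and 7 members, and the difference between directions was not tested. The median log2 fold change of the 29 members was 0.029, and that of all tested genes was 0.0146.

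**Figure D1:**
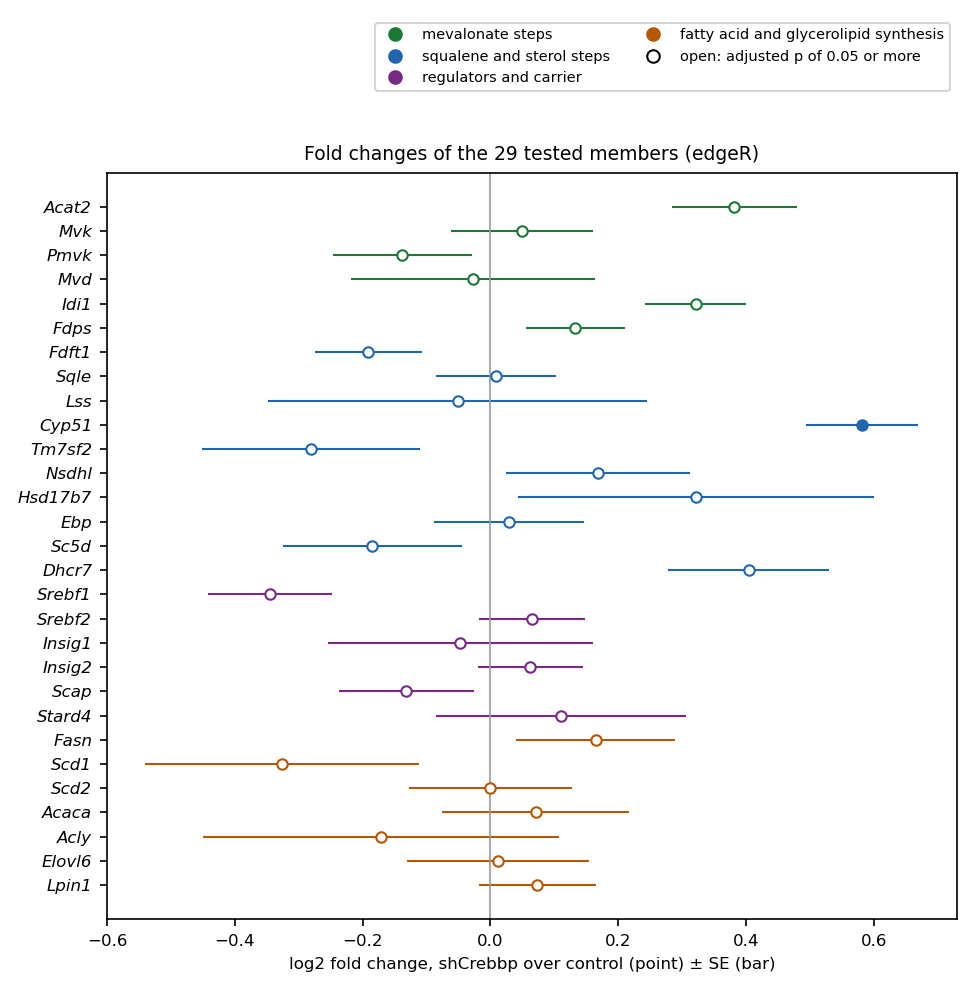
Log2 fold change (shCrebbp over control, x axis) of each of the 29 tested members, in 4 role groups by colour, with the SE as a bar; a filled point marks an adjusted p under 0.05 in edgeR. Cyp51 at 0.58 is the 1 filled point, and most other members lie within 1 or a few SE of 0.

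The mevalonate steps turn acetyl-CoA into farnesyl pyrophosphate. None of the 6 tested genes was called in edgeR. Of all tested genes 16.5% had an unadjusted p under 0.05 in either direction, and 7.99% higher. Here 2 had an unadjusted p under 0.05, both higher (33.3%). DESeq2 called both of those higher, among 727 of 12865 genes that it called in either direction. Acat2, the cytosolic acetoacetyl-CoA thiolase gene, stood at 49.1, 56.8 and 49.4 CPM in shCrebbp replicates 1, 2 and 5, against 37.5, 39.9 and 41.9 CPM in control replicates 1, 2 and 3. All 3 hairpin libraries lay above all 3 controls, and the log2 fold change was 0.38 ± 0.10 (SE, edgeR adjusted p = 0.106; DESeq2 adjusted p = 0.0324). Of the 50-base words in Acat2 transcripts, 40.7% also occur in other genes, mainly the neighbouring copy Acat3, so its count is uncertain.

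Idi1, which encodes isopentenyl-diphosphate isomerase, stood at 94.3, 91.6 and 90.2 CPM with hairpins 1, 2 and 5, against 77.7, 73.2 and 70.1 CPM in the controls. The hairpin libraries differed little among themselves and lay above each control, with a log2 fold change of 0.32 ± 0.08 (SE, edgeR adjusted p = 0.0974; DESeq2 adjusted p = 0.0195). Idi1 shares 19.97% of its 50-base words with other annotated genes, mainly the gene model Gm13502. Fdps, the farnesyl pyrophosphate synthase gene, was also higher in each hairpin library, at 137, 127 and 122 CPM, against 115, 118 and 118 CPM in controls. Its difference was small, at a log2 fold change of 0.13 ± 0.08 (SE, edgeR adjusted p = 0.451), and 64.1% of its 50-base words occur in other genes. Fdps was the most abundant mevalonate gene per length, at 30.5 ± 1.77 CPM per kb of exon in shCrebbp libraries and 27.9 ± 0.442 CPM per kb in controls (SD, n = 3 each).

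The remaining tested mevalonate genes, the kinase genes Mvk and Pmvk and the decarboxylase gene Mvd, overlapped between groups. Their log2 fold changes lay between -0.14 (Pmvk) and 0.05 (Mvk), with adjusted p of 0.597 to 0.967 in edgeR. Over the 6 tested genes the mean log2 CPM was 5.60, 5.54 and 5.47 in the 3 hairpin libraries (1, 2, 5), against 5.40, 5.43 and 5.44 in the controls (1, 2, 3). This mean was above every control in each hairpin library, though hairpin 5 exceeded the highest of them by little.

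The squalene and sterol steps condense farnesyl units to squalene, close the ring to lanosterol and trim it to cholesterol. Of these 10 genes 1 was called higher and none lower in edgeR (10%). Of all tested genes 1.25% were called in either direction and 0.276% higher. An unadjusted p under 0.05 was found for 2, both higher (20%). Of all tested genes 16.5% had one in either direction and 7.99% higher. Cyp51 stood at 90.3, 80.2 and 77.8 CPM with hairpins 1, 2 and 5, against 54.6, 54.4 and 56.9 CPM in the controls. Each hairpin library lay well above the highest control, and the group means were 82.8 ± 6.65 CPM with the hairpins and 55.3 ± 1.35 CPM in controls (SD, n = 3 each). The log2 fold change was 0.58 ± 0.09 (SE, edgeR adjusted p = 0.0277). Of the Cyp51 exon bases 3.76% overlap Akap9 on the opposite strand. The call was lost without any 1 of the controls, with adjusted p of 0.164, 0.204 and 0.0985 without control replicates 1, 2 and 3, while the log2 fold change stayed between 0.56 and 0.60. Without either shEmpty library edgeR called no gene at all, although 1332 and 1238 genes had an unadjusted p under 0.05. In the same fits 4 and 5 members did so. Without hairpin 1, 2 or 5 Cyp51 stayed called (adjusted p = 0.0242, 0.0446 and 0.0313).

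Dhcr7, which encodes the reductase of the last step to cholesterol, stood at 36.2, 36.6 and 28.5 CPM with hairpins 1, 2 and 5, against 23.5, 26.8 and 26.3 CPM in controls. Hairpin 5 exceeded the highest control by little, while hairpins 1 and 2 lay well above the controls, and the log2 fold change was 0.40 ± 0.13 (SE, edgeR adjusted p = 0.169). Fdft1, the squalene synthase gene at the entry of this branch, went the other way, at 72.7, 72.2 and 80.6 CPM with the hairpins, against 82.2, 86.3 and 89.1 CPM in controls. Its log2 fold change was -0.19 ± 0.08 (SE, edgeR adjusted p = 0.304), and 18.3% of its exon bases overlap Ctsb on the opposite strand, whose reads cannot be told apart without a known strand setting. Sqle, the squalene epoxidase gene and the most abundant of this branch per length (27.3 ± 2.37 CPM per kb with hairpins and 27.2 ± 1.82 in controls, SD, n = 3 each), had 163, 137 and 154 CPM with hairpins 1, 2 and 5 and 158, 154 and 139 CPM in controls. Its groups overlapped fully, with a log2 fold change of 0.01 ± 0.09 (SE, adjusted p = 0.980).

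The other genes of the branch were Tm7sf2, Nsdhl, Ebp, Sc5d, Lss and Hsd17b7. They encode a sterol reductase, a sterol dehydrogenase, the sterol isomerase, lathosterol desaturase, lanosterol synthase and a keto-steroid reductase. Their groups overlapped, and their log2 fold changes ranged from -0.28 (Tm7sf2) to 0.32 (Hsd17b7), with edgeR adjusted p from 0.470 to 0.962. Tm7sf2 shares 19.5% of its 50-base words with other genes, mainly Vps51.

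**Figure D2:**
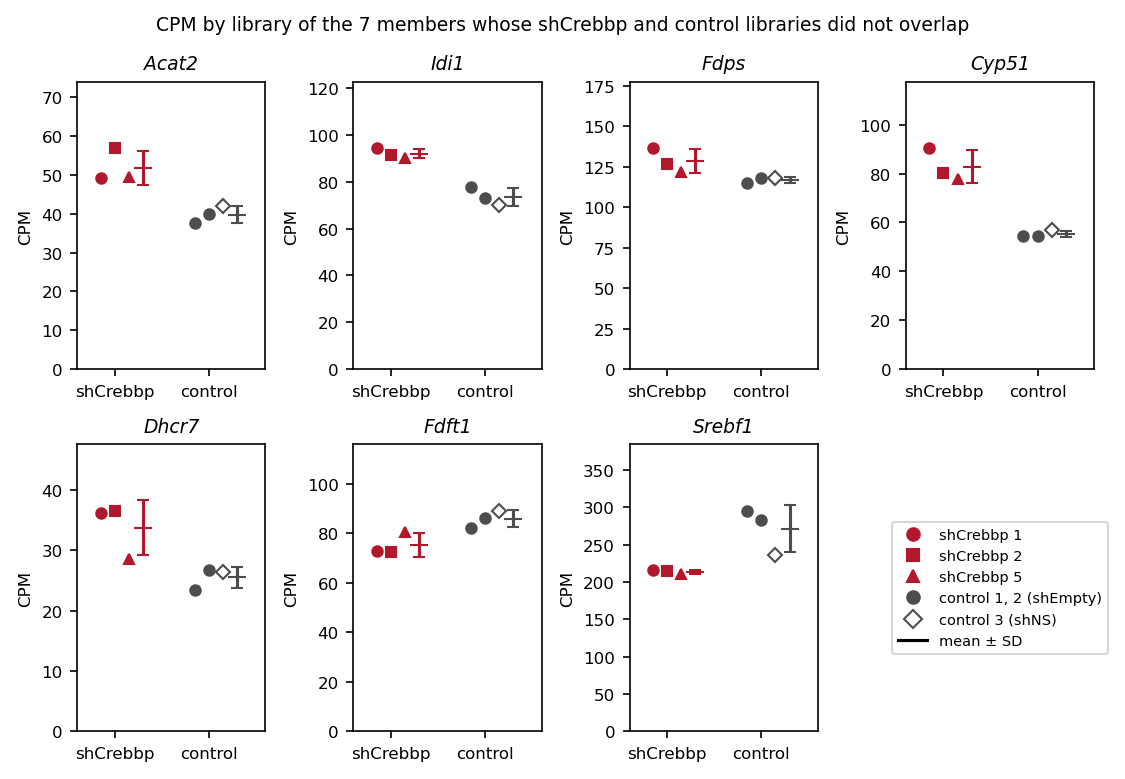
CPM (y axis, from 0) in each library for the 7 members whose 3 shCrebbp libraries lay all above or all below the 3 controls, with the group mean and SD beside the points. Acat2, Idi1, Fdps, Cyp51 and Dhcr7 are higher with the hairpins and Fdft1 and Srebf1 lower; only Cyp51 passed the threshold in edgeR, and the shNS control of Srebf1 (open diamond, 236 CPM) lies nearest the hairpin libraries.

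The promoters of the members without overlap between groups are shown, where there was an entry, with some of the motifs through which SREBP and CREB factors are known to act. The 250 bases before the most upstream RefSeq start (build GRCm38.p6, not the build of the count files) were searched on both strands in the 24 of 30 members with an entry (Fdps, Fdft1, Sqle, Stard4, Scd1 and Scd2 had none). The motifs were TCACNCCAC (sterol regulatory element), CACGTG (E-box), CCAAT (the box bound by NF-Y, a partner of SREBP), TGACGTCA (cAMP response element) and its shorter core TGACG, which lies inside it. Capitals below mark any of these matches, on either strand, in Cyp51 (called higher), Idi1, Acat2 and Dhcr7 (higher without overlap) and Srebf1 (lower without overlap).
Cyp51, chr5:4104698-4104947, minus strand: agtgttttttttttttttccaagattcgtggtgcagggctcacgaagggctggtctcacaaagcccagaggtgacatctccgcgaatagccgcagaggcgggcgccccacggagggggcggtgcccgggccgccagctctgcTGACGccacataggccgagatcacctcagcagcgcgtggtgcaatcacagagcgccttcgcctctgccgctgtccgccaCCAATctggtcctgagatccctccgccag
Idi1, chr13:8885356-8885605, plus strand: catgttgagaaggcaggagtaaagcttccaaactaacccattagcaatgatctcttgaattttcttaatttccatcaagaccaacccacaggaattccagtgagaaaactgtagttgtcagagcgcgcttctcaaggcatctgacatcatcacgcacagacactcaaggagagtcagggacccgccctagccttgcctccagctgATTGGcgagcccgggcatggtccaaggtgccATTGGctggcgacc
Acat2, chr17:12960726-12960975, minus strand: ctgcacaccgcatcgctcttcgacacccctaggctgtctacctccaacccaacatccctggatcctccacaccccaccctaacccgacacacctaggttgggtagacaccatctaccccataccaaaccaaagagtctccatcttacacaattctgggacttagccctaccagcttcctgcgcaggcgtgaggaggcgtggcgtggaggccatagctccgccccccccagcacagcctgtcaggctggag
Dhcr7, chr7:143822917-143823166, plus strand: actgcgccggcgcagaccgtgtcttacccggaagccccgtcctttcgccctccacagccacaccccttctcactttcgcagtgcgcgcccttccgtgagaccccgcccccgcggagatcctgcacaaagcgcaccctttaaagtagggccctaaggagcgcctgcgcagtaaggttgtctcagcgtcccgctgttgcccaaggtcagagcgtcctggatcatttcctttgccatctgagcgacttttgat
Srebf1, chr11:60222582-60222831, minus strand: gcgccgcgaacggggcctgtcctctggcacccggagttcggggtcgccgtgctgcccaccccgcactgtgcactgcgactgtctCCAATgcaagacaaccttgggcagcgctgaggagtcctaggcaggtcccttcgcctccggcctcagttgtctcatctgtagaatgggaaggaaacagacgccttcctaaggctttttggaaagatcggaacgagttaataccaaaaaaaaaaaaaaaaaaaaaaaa
The Cyp51 window held 1 CCAAT starting 29 bases and 1 TGACG starting 108 bases before the start, and no full TGACGTCA. The Idi1 window held CCAAT on the minus strand at 45 and 14 bases, the Srebf1 window held 1 CCAAT at 166 bases, and the Acat2 and Dhcr7 windows held none of the 5 motifs. Across the members CCAAT occurred in 17 of 24 promoters (70.8%), beside 34.5% of 27025 promoters of all genes. The core TGACG occurred in 7 (29.2%), beside 17.8%, and CACGTG in 3 (12.5%), beside 6.04%. TCACNCCAC was found in 1 member promoter (4.17%, beside 1.03% of all), that of Hmgcs1, and TGACGTCA in 0 of 24 (beside 1.6%). These are matches to the listed letters only, with no measure of binding. Variant forms of a motif, such as other sterol regulatory elements, were neither marked nor counted.

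None of the 6 regulator and carrier genes was called in edgeR. Srebf1 stood at 216, 215 and 211 CPM with hairpins 1, 2 and 5, against 296, 283 and 236 CPM in the controls. The hairpin libraries lay within a factor of 1.02 of each other and below every control. Among the controls the shNS library was the lowest and the nearest to the hairpin libraries, and it had the fewest gene reads. The log2 fold change of Srebf1 was -0.35 ± 0.10 (SE, edgeR adjusted p = 0.133). DESeq2 called Srebf1 lower (adjusted p = 0.0332), and without shNS the log2 fold change was -0.44 (edgeR adjusted p = 0.118). It was the 1 member of this group with an unadjusted p under 0.05 (16.7%). The share of all tested genes was 16.5% in either direction and 8.46% for lower genes. Srebf2 stood at 220, 198 and 207 CPM with the hairpins and at 207, 205 and 185 CPM in controls, which overlap, with a log2 fold change of 0.07 ± 0.08 (SE, adjusted p = 0.768).

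Scap, the SREBP escort gene, stood at 126, 111 and 98.6 CPM with hairpins 1, 2 and 5 and at 128, 127 and 113 CPM in controls. Hairpin 1 lay among the controls and hairpins 2 and 5 below them, and the log2 fold change was -0.13 ± 0.11 (SE, edgeR adjusted p = 0.606). Insig2 stood at 56.1, 55.1 and 59.9 CPM with hairpins and at 54.1, 56.4 and 53.4 CPM in controls, with a log2 fold change of 0.06 ± 0.08 (SE, adjusted p = 0.777). Insig1, the most abundant of this role per length in both groups (53.6 ± 16.3 CPM per kb with hairpins and 55.4 ± 6.33 in controls, SD, n = 3 each), is itself a known SREBP target. It stood at 213, 113 and 171 CPM with hairpins 1, 2 and 5 and at 190, 172 and 151 CPM in controls. Its highest and lowest libraries were both hairpin libraries, and the pooled log2 fold change was -0.05 ± 0.21 (SE, adjusted p = 0.948).

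The fatty acid and glycerolipid genes showed no pooled difference that passed. None of the 7 was called by edgeR, DESeq2 or limma-voom, none had an unadjusted p under 0.05 in edgeR, and in all 7 the groups overlapped. Scd2, a stearoyl-CoA desaturase gene, was the most abundant of all members per length, at 124 ± 19.6 CPM per kb in shCrebbp libraries and 124 ± 13.0 in controls (SD, n = 3 each). It had 795, 584 and 656 CPM with hairpins 1, 2 and 5 and 755, 666 and 614 CPM in controls, so the hairpin libraries spanned the controls on both sides. Its paralogue Scd1, with 2.65 ± 0.611 CPM per kb with hairpins and 3.31 ± 0.693 in controls (SD, n = 3 each), was among the lowest members per length in both groups. Fasn, the fatty acid synthase gene, had 447, 454 and 335 CPM with hairpins 1, 2 and 5 and 391, 371 and 340 CPM in controls, with hairpins 1 and 2 above and hairpin 5 below all controls. Acaca, the acetyl-CoA carboxylase gene, had 170, 119 and 119 CPM with hairpins and 139, 129 and 120 CPM in controls, and 49.1% of its 50-base words occur in other gene models. Elovl6, a fatty acid elongase gene, and Lpin1, a phosphatidate phosphatase gene, had log2 fold changes of 0.01 ± 0.14 and 0.07 ± 0.09 (SE), with edgeR adjusted p of 0.980 and 0.763.

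For several sterol genes the hairpin libraries lay on both sides of the controls. The log2 range over the 3 hairpin libraries was wider than that over the 3 controls in 25 of 29 members (86.2%), beside 78.5% of all tested genes, with a median range of 0.405 in hairpin libraries and 0.163 in controls (0.367 and 0.189 over all tested genes). It reached 1, a doubling, in 3 members (10.3%), Lss, Acly and Hsd17b7, beside 10.9% of all tested genes, so the share of wide members is near the background. The members with the widest range over the hairpin libraries are described here, picked by those values. Lss stood at 46.5, 27.2 and 17.4 CPM with hairpins 1, 2 and 5, against 32.5, 31.0 and 30.7 CPM in controls. Hairpin 1 lay above and hairpins 2 and 5 below a control group that spanned a factor of 1.06, and the pooled log2 fold change of -0.05 ± 0.30 (SE, edgeR adjusted p = 0.962) averages these. Hsd17b7 stood at 26.3, 12.3 and 14.4 CPM with the hairpins, against 11.7, 15.2 and 15.5 CPM in controls, so that hairpin 1 alone lay outside the control range.

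Acly, which encodes the ATP citrate lyase that supplies cytosolic acetyl-CoA to both routes, stood at 110, 256 and 259 CPM with hairpins 1, 2 and 5, against 247, 234 and 222 CPM in controls. With hairpin 1 it stood at -1.09 log2 units from the control mean, and it was slightly above the controls with hairpins 2 and 5. Stard4, a sterol carrier gene, stood at 38.1, 21.7 and 27.0 CPM with the hairpins, against 29.7, 25.1 and 25.5 CPM in controls. Mvd stood at 29.9, 18.5 and 19.7 CPM with the hairpins, against 20.6, 23.7 and 25.0 CPM in controls. Lss, Hsd17b7, Insig1, Stard4 and Mvd thus were each highest with hairpin 1 of all 6 libraries, and Insig1, Stard4 and Mvd lowest with hairpin 2. The promoters of the 2 of these genes that held an E-box are shown for comparison, with the same marking.
Insig1, chr5:28071162-28071411, plus strand: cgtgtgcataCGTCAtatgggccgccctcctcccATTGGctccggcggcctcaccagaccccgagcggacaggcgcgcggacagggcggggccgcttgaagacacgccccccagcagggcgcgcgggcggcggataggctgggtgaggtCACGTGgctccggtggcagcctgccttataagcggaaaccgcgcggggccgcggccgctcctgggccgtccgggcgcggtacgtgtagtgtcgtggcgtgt
Hsd17b7, chr1:169969206-169969455, minus strand: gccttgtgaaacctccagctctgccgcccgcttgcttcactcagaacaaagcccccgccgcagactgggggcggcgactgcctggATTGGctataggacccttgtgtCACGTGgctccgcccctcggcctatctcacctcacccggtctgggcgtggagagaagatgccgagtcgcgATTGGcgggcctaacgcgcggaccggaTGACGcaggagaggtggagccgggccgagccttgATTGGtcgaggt
In the Insig1 window CACGTG began 101 bases before the start and in the Hsd17b7 window 143 bases before it, each beside at least 1 CCAAT and 1 TGACG on either strand. No match to TCACNCCAC was found in either window. The Lss and Mvd windows held no CACGTG, and Stard4 had no entry. The other member with CACGTG, Sc5d, was lowest with hairpin 1 of all 6 libraries. It stood at 24.0 CPM there, against 32.9, 31.4 and 34.5 CPM in controls. A link between motif and hairpin was not tested.

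**Figure D3:**
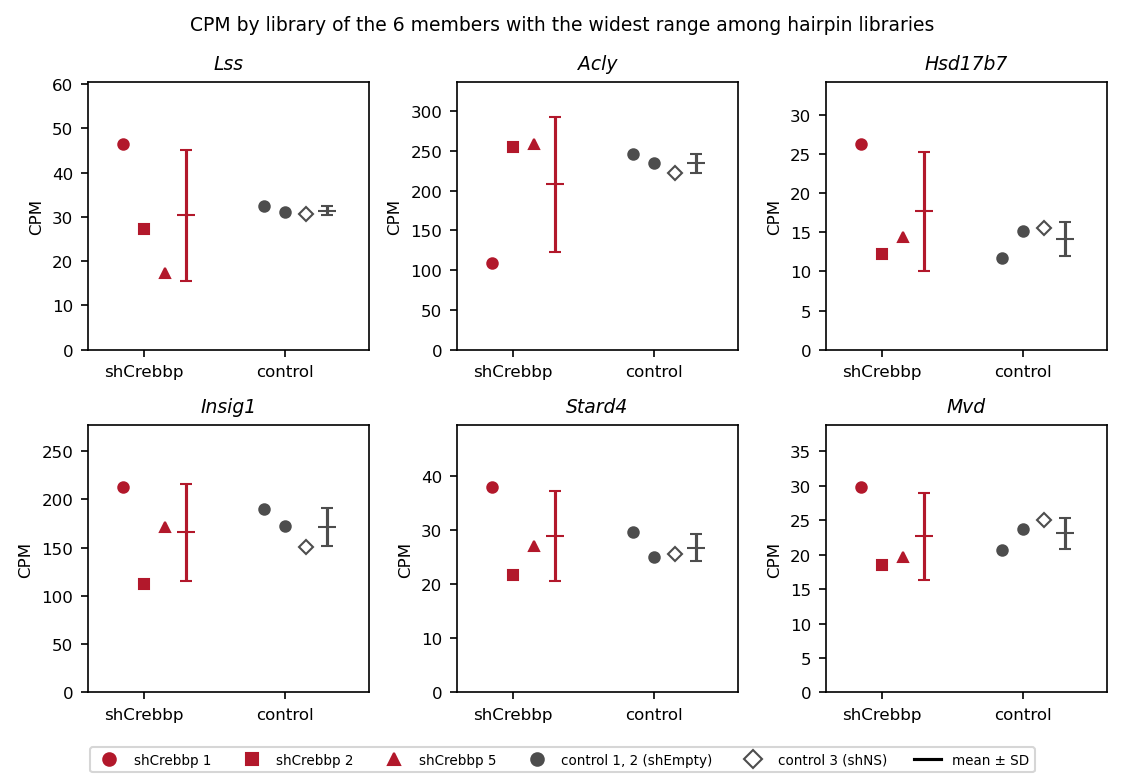
CPM (y axis, from 0) in each library for the 6 members with the widest log2 range over the hairpin libraries, with group mean and SD. Hairpin 1 (circles) is the highest library for Lss, Hsd17b7, Insig1, Stard4 and Mvd and the lowest for Acly, at 110 CPM, against 222 to 247 CPM in controls.

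Library by library, the members were above the controls most often with hairpin 1. With hairpin 1, 18 of 29 members (62.1%) lay above all 3 controls and 8 (27.6%) below, beside 38.0% and 36.5% of all tested genes. With hairpin 2, 10 members (34.5%) lay above and 12 (41.4%) below, beside 38.1% and 36.8%. With hairpin 5, 11 members (37.9%) lay above and 11 below, beside 33.2% and 31.5%. These are single libraries, so the difference between hairpins was not tested. Averaged over the 29 members, log2 CPM came to 6.04 for hairpin 1, 5.90 for hairpin 2 and 5.89 for hairpin 5, while the controls gave 5.95, 5.94 and 5.88. Hairpin 1 lay above every control and the other hairpins within the control range, and the group means were 5.94 ± 0.08 with hairpins and 5.92 ± 0.04 in controls (SD, n = 3 each), a difference of 0.02 that is smaller than either SD.

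**Figure D4:**
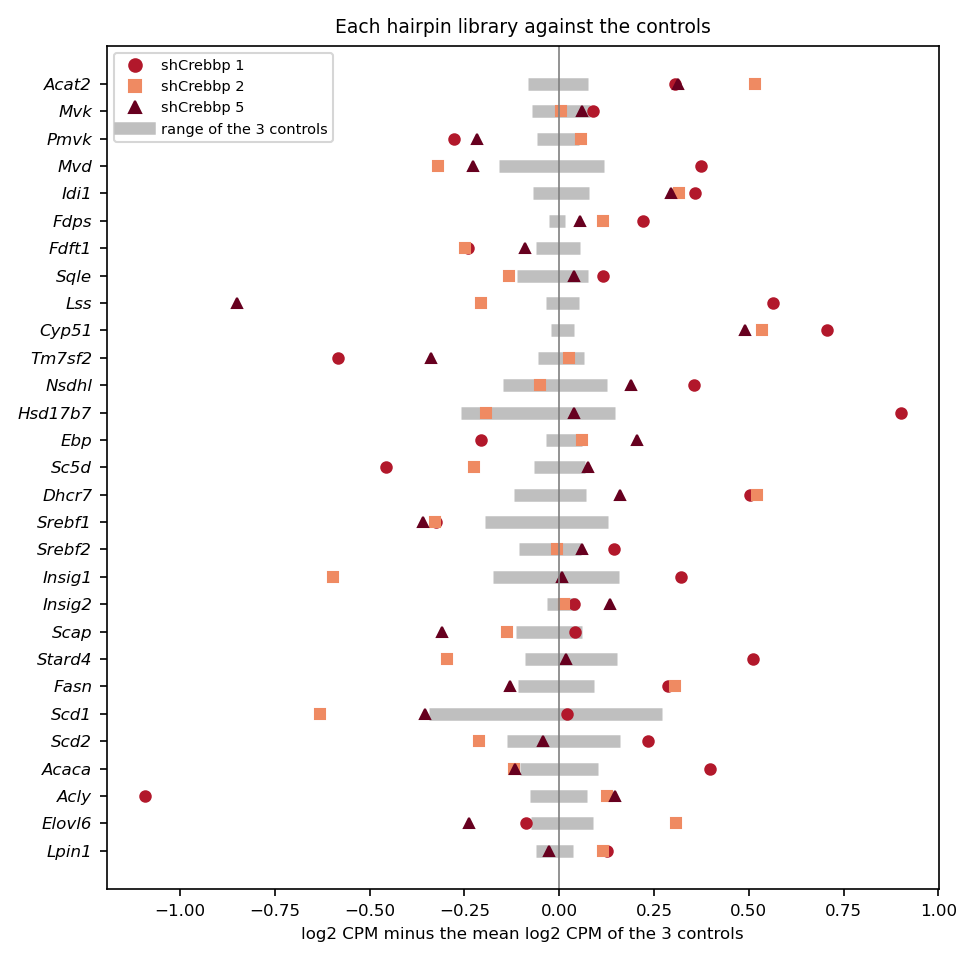
Log2 CPM of each hairpin library minus the mean of the 3 controls (x axis) for the 29 tested members, with the range of the controls as a grey bar. Cyp51, Acat2 and Idi1 have all 3 hairpins to the right of the bar and Srebf1 all 3 to the left, while Lss runs from -0.85 with hairpin 5 to 0.57 with hairpin 1.

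By role, the squalene and sterol genes averaged 5.29, 5.14 and 5.12 log2 CPM with hairpins 1, 2 and 5, against 5.10, 5.16 and 5.13 in controls, so that only hairpin 1 exceeded every control and hairpins 2 and 5 lay within their range. The regulators and carriers averaged 6.89, 6.54 and 6.69, against 6.86, 6.79 and 6.65, with hairpin 2 the lowest of all libraries. The fatty acid genes averaged 6.74, 6.74 and 6.65, against 6.84, 6.77 and 6.67, with hairpin 5 just below every control. The control libraries were ordered in these last 2 roles as shEmpty replicate 1, shEmpty replicate 2 and shNS, from high to low. Their reads assigned to genes fell in the same order, at 19804949, 16446925 and 13687770. Hairpins 1, 2 and 5 had 13622020, 13937299 and 14651158. The part of vector or read depth in this order was not tested.

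**Figure D5:**
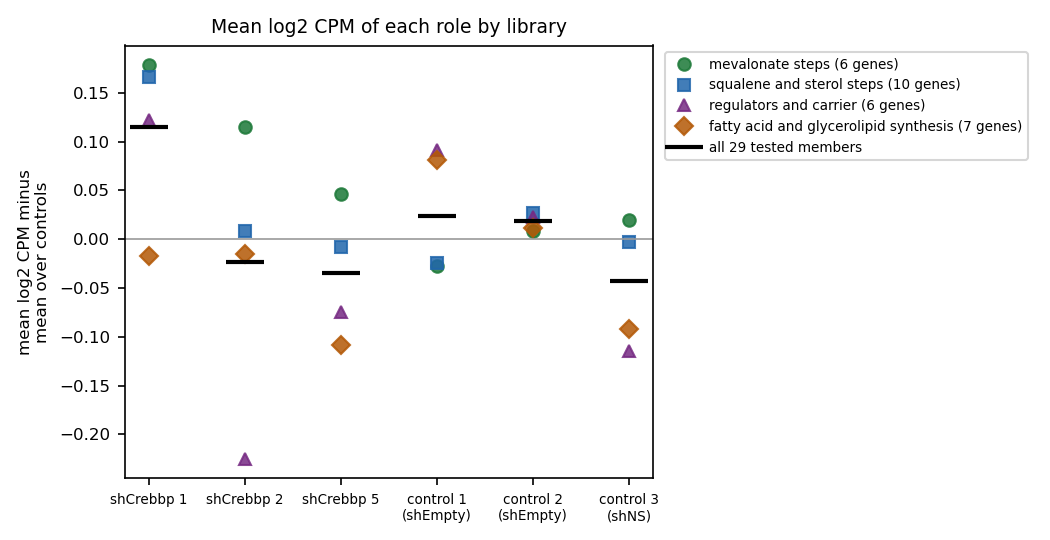
Mean log2 CPM of the tested genes of each role in each library, minus the mean of that role over the 3 controls (y axis). The mean of the mevalonate genes is above every control with all 3 hairpins (0.18, 0.12 and 0.05), though not each gene is. The mean of the regulators runs from 0.12 with hairpin 1 to -0.22 with hairpin 2.

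Other genes of the same metabolism were read from 5 further lists, of which 68 names were in the files and 66 were tested. Of these 1 was called higher and none lower in edgeR (1.52%, beside 1.25% of all tested genes). Lipa, which encodes the lysosomal acid lipase that frees cholesterol from its esters, stood at 12.9, 13.96 and 8.23 CPM with hairpins 1, 2 and 5, against 3.22, 4.33 and 3.94 CPM in controls. It rose 3.06-fold, with a log2 fold change of 1.61 ± 0.25 (SE, edgeR adjusted p = 0.0277). This call was lost without control replicate 1, 2 or 3 (adjusted p = 0.160, 0.170 and 0.0985) and without hairpin 2 (adjusted p = 0.0561). In the same list of 15 tested genes of sterol uptake, storage and efflux, Nceh1, a neutral cholesterol ester hydrolase gene, stood at 47.4, 43.9 and 42.7 CPM with the hairpins, against 62.2, 58.6 and 69.2 CPM in controls. Its groups did not overlap, and the log2 fold change of -0.50 ± 0.10 (SE) did not pass in edgeR (adjusted p = 0.0534), while DESeq2 called it lower, as did edgeR without the filter on low counts or without hairpin 1.

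In the other 4 lists edgeR called no gene, while 3 of 5, 0 of 9, 2 of 8 and 11 of 29 tested genes had an unadjusted p under 0.05 in the later sterol steps, the isoprenoid branch, SREBP processing with AMPK, and the remaining fatty acid genes. In the later sterol steps the closest were Cyb5r3, a cytochrome b5 reductase gene, at -0.50 ± 0.17 (SE, adjusted p = 0.198), and Por, the cytochrome P450 reductase gene that serves Cyp51, at -0.27 ± 0.11 (SE, adjusted p = 0.293). The other gene of this list with an unadjusted p under 0.05, Sc4mol, went the opposite way, and its groups overlapped. Its log2 fold change was 0.36 ± 0.16 (SE, edgeR adjusted p = 0.300). Cyb5r3 stood at 104, 168 and 152 CPM with hairpins 1, 2 and 5, against 219, 205 and 177 CPM in controls, below every control in each hairpin library. For Por the groups overlapped, at 74.2, 83.5 and 93.8 CPM with the hairpins, against 107, 107 and 89.3 CPM in controls. Among SREBP processing and AMPK genes the closest were Mbtps2, the site-2 protease gene, at 0.41 ± 0.12 (SE, adjusted p = 0.144), and Prkag1, an AMPK subunit gene, at 0.21 ± 0.07 (SE, adjusted p = 0.209). Mbtps2 stood at 31.2, 25.0 and 26.2 CPM with the hairpins, against 20.8, 19.6 and 21.5 CPM in controls, without overlap. In the isoprenoid branch they were Pdss2 at 0.27 ± 0.16 (SE, adjusted p = 0.442) and Nus1 at -0.18 ± 0.11 (SE, adjusted p = 0.470), genes of the coenzyme Q and dolichol side chains. Among the remaining fatty acid and glycerolipid genes they were the acyl-CoA synthetase gene Acsl5 at -0.54 ± 0.14 (SE, adjusted p = 0.113) and the fatty acid binding protein gene Fabp5 at 0.66 ± 0.18 (SE, adjusted p = 0.121), and DESeq2 called both. Of all 66 tested genes 23 (34.8%) had an unadjusted p under 0.05, 12 higher and 11 lower, beside 16.5% of all tested genes. Since the lists were chosen with earlier results of these data known, the gap between these shares is no test of the lists.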

How the data were processed

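The deposited values were raw counts of reads per gene, 1 file per library, with no normalization by the authors. Per the labels' protocols, poly(A) RNA libraries were made from TRIzol-extracted total RNA with a NEBNext Ultra kit. Per the submitters' processing notes, the tools were HTSeq 0.6.1, TopHat2 2.0.12 and bcl2fastq 1.8.2, with build mm9. The gene annotation and the rules for strand and overlap were not given in the sources used here. Summary rows of HTSeq (5 per file, 24.8% to 28.9% of reads) entered neither the library sizes nor the tests.

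Groups came from the labels (3 shCrebbp, 3 control libraries). The test was the robust quasi-likelihood test of edgeR 4.0.16 (R 4.3.3) after filterByExpr and TMM scaling, without a covariate, with Benjamini-Hochberg adjustment over 13390 tested genes at 0.05. Fold changes are shCrebbp over control, and SE was taken from the fold change and the F statistic. Log2 CPM used a prior count of 2. A count of 3 reads, 0.153 to 0.22 CPM, was taken as the floor, and floors cover counting error only. Exon lengths, overlaps and shared 50-base words came from GENCODE M21 (GRCm38), not the build of the count files. Overlaps were limited to gene names in the count files. Shared words were not, so some genes that share them may not have been counted. The test was tried on simulated counts before use. Alternatives were other normalizations, filters and estimators, DESeq2 1.42.0, limma-voom (limma 3.58.1) and leaving out each library.

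All members were accounted for by role. Values per library were given for members with an unadjusted p under 0.05, for the most abundant per length in each role, for the SREBP, SCAP and INSIG genes, and for members without overlap between groups. Fasn, Acaca, Sc5d and the members with wide hairpin ranges were added after their values were seen. Of the further lists, called genes and otherwise the 2 with the smallest p were named, and Sc4mol was added after its values were seen. Members and lists were chosen with earlier results of these data known.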

Additional observations from a re-analysis of the deposited data

How the results depend on the processing

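Cyp51 stayed called higher under every other normalization, filter and estimator tried and with DESeq2 and limma-voom, and its call was lost without any 1 control. Members called ranged from 0 to 1 when 1 library was left out (higher 0 to 1, lower 0 to 0), and DESeq2 called 4, of which 3 were higher and 1 lower. Over all genes DESeq2 called 727, of which 294 were higher and 433 lower, the fit without a filter called 57 higher, and leaving out 1 library gave 0 to 389 (higher 0 to 142, lower 0 to 247). Of the further lists DESeq2 called 4 (2 higher, 2 lower), the fit without a filter 2 (1 lower), and leaving out 1 library 0 to 4 (higher 0 to 2, lower 0 to 2). Crebbp was -0.42 with DESeq2 (adjusted p = 0.0159) and -0.53 to -0.35 when 1 library was left out. The difference in mean log2 CPM over the members was -0.03 to 0.05 in those fits. Members near 0 changed sign: Sqle was -0.0016 without a filter, Scd2 0.0070 with upper quartile normalization and Elovl6 -0.0029 with limma-voom. When 1 library was left out the log2 fold change ranged from -0.28 to 0.10 for Mvd, -0.049 to 0.071 for Sqle, -0.50 to 0.22 for Lss, -0.081 to 0.52 for Hsd17b7, -0.078 to 0.13 for Ebp and -0.27 to 0.16 for Insig1. It ranged from -0.14 to 0.28 for Stard4, -0.13 to 0.093 for Scd2, -0.12 to 0.16 for Acaca, -0.37 to 0.13 for Acly and -0.17 to 0.11 for Elovl6. The cause was not tested. No paired analysis was possible because the labels give the controls and the hairpins only the number 2 in common, the other control numbers used here being names in accession order.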
